A study of Rattus norvegicus with 4 samples.

Results

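This account covers 10 immediate early and cAMP/CREB-responsive genes in rat INS-1 832/13 β-cells depleted of Tbk1. They are Fos, Fosb, Jun, Junb, Egr1, Nr4a1, Nr4a2, Ier2, Crem and Dusp1. The genes were taken by name from a table of 15172 genes, and all 10 were listed and passed the filter on low counts. They were chosen with earlier results of these data known. INS-1 832/13 is a clonal rat insulinoma line that secretes insulin, so every sample came from 1 line. Cells were transfected for 36 h either with a non-targeting siRNA (siScramble, Scramble-transfected, 2 samples) or with a pool of siRNAs against Tbk1 (siTbk1, TBK1-transfected, 2 samples). Both groups received transfection reagent, and the labels name no added stimulus. The line was maintained in serum-containing medium, but the study's methods do not state the medium used during transfection. Nothing in the labels says whether the samples of a group came from separate cultures, so the p-values measure the spread between these samples, which may be technical.

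Immediate early genes are switched on within minutes of a stimulus by transcription factors that are already present in the cell, and their mRNAs are short-lived. In β-cells glucose, incretin hormones and depolarization raise cAMP and calcium. Protein kinase A and calcium-dependent kinases then phosphorylate CREB, which binds the cAMP response element (CRE), while the ERK pathway acts through serum response factor (SRF) at CArG boxes. The products include the AP-1 subunits (Fos and Jun families), the zinc finger factor Egr1 and the orphan nuclear receptors of the Nr4a family. Dusp1 and the short Crem products feed back on the kinases and on CREB.

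Promoter sequences show how the CRE is placed in these genes. RefSeq promoter windows of the rat build GRCr8, running from 250 bases before to 50 bases after a transcript start, were matched by symbol for 8 of the 10 genes (10 windows). Fos and Jun had no entry. The stretches printed here lie upstream of the start and were chosen because they hold a full CRE or, in Nr4a1, its half-sites. Capitals mark the CRE (TGACGTCA) or its half-site (TGACG on either strand, which every full CRE contains).
Dusp1, chr10:17184673-17184748, plus strand: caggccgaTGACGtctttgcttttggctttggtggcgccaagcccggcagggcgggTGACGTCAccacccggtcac
Ier2, chr19:40399278-40399353, plus strand: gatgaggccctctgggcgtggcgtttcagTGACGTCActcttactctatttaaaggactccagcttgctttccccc
Nr4a1, chr7:134260043-134260098, plus strand: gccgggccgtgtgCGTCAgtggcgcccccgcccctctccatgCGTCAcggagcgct
Crem, chr17:58984722-58984777, plus strand: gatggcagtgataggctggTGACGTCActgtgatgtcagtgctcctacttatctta
Crem, chr17:58985430-58985489, plus strand: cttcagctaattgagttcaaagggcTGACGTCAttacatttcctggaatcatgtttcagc

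A full CRE was found in 4 of the 10 windows, against 1.83% of all 33469 rat windows of the same length. By gene, with Crem counted once, it was found in 3 of 8, against 2% of all 27457 genes. It began 124 bases before the start in Dusp1, 66 in Ier2, and 56 and 35 in the Crem windows shown. Those Crem starts lie 50.7 and 51.4 kb downstream of the first listed start, inside the gene, and the first window held half-sites only. The half-site was found in 9 of the 10 windows, against 21.2% of all windows, and Nr4a1 held 4 copies. By gene the half-site was found in 7 of 8, against 23% of all genes. The CArG box was found in Egr1 alone among the 10 windows, at 105 and 83 bases before the start, against 1.64% of all windows. The AP-1 sequence (TGACTCA or TGAGTCA, both strands) was found in 0 of the 10 windows, against 4.63% of all windows. The Egr sequence (GCGTGGGCG or GCGGGGGCG, both strands) was found in the Nr4a1 window, against 3.20% of all windows. These matches describe the letters in the windows and do not show binding. The genes were listed as immediate early or cAMP/CREB-responsive, so a high share with a CRE follows in part from how they were chosen.

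The target of the siRNA was lower in both siTbk1 libraries. Total estimated counts ranged from 38428926 to 47759013 per library. At this depth 3 counts equal 0.0628 to 0.0781 CPM (counts in every 1000000 counts of a library), a reference value that was not used as a filter. Normalized counts are estimated counts scaled with TMM factors to the mean effective library size. The normalized count of Tbk1 was 2315 and 2261 in the siScramble libraries (replicates 2 and 3) and 510 and 575 in the siTbk1 libraries. This is a log2 fold change of −2.08 (standard error 0.0757, edgeR adjusted p = 3.7e-08). All 10 β-cell marker genes examined were detected, and their summed normalized counts were 805292 and 843669 in the siScramble and 688266 and 616637 in the siTbk1 libraries. Most of this difference was Ins1, with group means of 462844 and 296662 normalized counts. Ins1 and Ins2 were called lower. At the adjusted p-value alone 5 of the 10 were lower and 2 higher, Iapp (log2 fold change 0.38) and Nkx6-1 (0.23), and 3 did not pass. Of 4 markers of other islet cells only Gcg, the glucagon gene, had a row, and it was called lower (56617 to 59879 normalized counts in control and 35134 to 37832 in siTbk1-treated cells). Of 8 stromal, endothelial and immune markers Kdr and Cd68 had rows, with a sum of 376 and 416 in control and 134 and 147 in siTbk1-treated cells, and Kdr was called lower. The part of these marker changes in the results was not tested.

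Most of the immediate early and CREB target genes were lower in siTbk1-treated cells. Fos, Ier2 and Junb were called lower, a call that needed a 1.5-fold change together with an edgeR adjusted p-value below 0.05 (quasi-likelihood test, Benjamini-Hochberg over all tested genes). Jun, Nr4a1, Egr1 and Dusp1 were lower at the same adjusted p-value with smaller fold changes. Fosb, Nr4a2 and Crem did not pass the test. Thus 3 of 10 genes (30%) were called lower and 0 higher, against 6.18% and 4.81% of the 13953 tested genes. Without the fold limit 7 of 10 (70%) were lower and 0 higher, against 24.8% and 24.4% of all tested genes. None of the 10 was higher at an unadjusted p-value under 0.05 either, and DESeq2 called 0 higher. The median log2 fold change of the 10 genes was −0.55, and that of all tested genes was 0.0071. Because the 10 genes were chosen with earlier results of these data known, their contrasts with all tested genes are descriptive. In bulk RNA, a change in the share of cells that express a gene and a change in RNA per cell cannot be told apart.

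**Figure D1:**
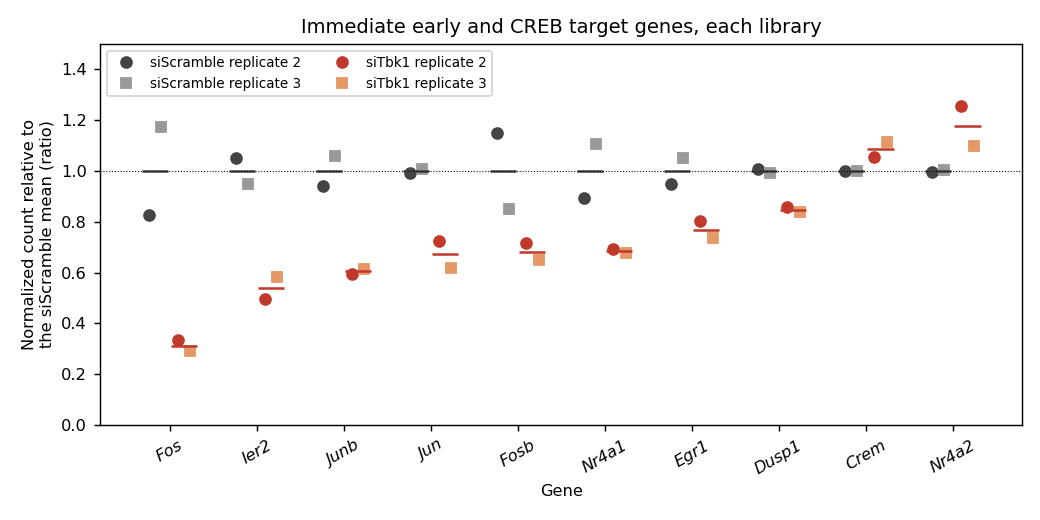
Normalized count of each gene in each of the 4 libraries, divided by the siScramble mean of that gene (y axis, ratio; short lines are group means, n = 2). Both siTbk1 libraries lay below both siScramble libraries for 8 genes and above them for Nr4a2 and Crem. Among all tested genes they lay below for 37.9% and above for 38.7%.

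The AP-1 subunit genes of the Fos family had few counts, at 0.42 to 1.75 CPM. Fos, whose product pairs with Jun proteins and which is listed on chromosome 6 from 109300433 to 109303300, had 58 and 68 estimated counts in the siScramble libraries and 23 and 16 in the siTbk1 libraries. The normalized count was 63.0 ± 15.5 with siScramble and 19.7 ± 1.98 with siTbk1 (SD, n = 2 each), so the control libraries differed more from each other than the siTbk1 libraries did, and the groups did not overlap. Fos thus changed by −1.65 on the log2 scale (standard error 0.301, 95% interval −2.31 to −1.0, edgeR adjusted p = 0.00075), a 3.14-fold decrease and the largest among the 10 genes. Fosb, a paralog of Fos listed on chromosome 1 from 80214494 to 80221711, had 36 and 22 estimated counts in the siScramble and 22 and 16 in the siTbk1 libraries. Its normalized counts did not overlap between groups, yet the gap between the control libraries (32.3 and 23.9) was larger than that between the lower control and the higher siTbk1 library (20.2). The log2 fold change of Fosb was −0.55 (95% interval −1.29 to 0.19, edgeR adjusted p = 0.199), an interval that spans both no change and a decrease of more than 2-fold. With so few counts a change of Fosb was not detectable.

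The Jun family genes were both lower, and both had more counts than the Fos family. Junb, listed on chromosome 19 from 26092974 to 26094757, encodes an AP-1 subunit that can restrain c-Jun. Its estimated counts were 416 and 386 in the siScramble and 258 and 214 in the siTbk1 libraries. The normalized counts were 373 and 420 in control against 236 and 244 in siTbk1-treated cells, with no overlap. For Junb the log2 fold change was −0.72 (standard error 0.113, 95% interval −0.97 to −0.47, edgeR adjusted p = 0.00027), a 1.65-fold decrease. Jun, the c-Jun gene at chromosome 5 from 114011189 to 114014278, had estimated counts of 378 and 317 in the siScramble and 271 and 185 in the siTbk1 libraries. After scaling, the control libraries nearly coincided at 339 and 345, and both siTbk1 libraries lay below them at 248 and 211. The log2 fold change of Jun was −0.57 (standard error 0.120, edgeR adjusted p = 0.0019). The decrease was 1.48-fold and thus just under the limit of 1.5, and Jun was called lower with library size alone as the scaling (log2 fold change −0.61) and without siTbk1 replicate 2 (−0.71).

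Egr1 encodes a zinc finger transcription factor induced by ERK signalling and calcium, and it is listed on chromosome 18 from 27657628 to 27661430. It had 615 and 560 estimated counts in the siScramble and 509 and 374 in the siTbk1 libraries. Normalized counts were 552 and 609 in control and 466 and 427 in siTbk1-treated cells, and the groups did not overlap. Egr1 had a log2 fold change of −0.37 (standard error 0.0960, 95% interval −0.58 to −0.16, edgeR adjusted p = 0.0067), a 1.3-fold decrease. Ier2, a small nuclear immediate early gene listed on chromosome 19 from 25774143 to 25775660, had 78 and 58 estimated counts in the siScramble and 36 and 34 in the siTbk1 libraries. Both siTbk1 libraries were lower, with normalized counts of 70.0 and 63.1 in control against 33 and 38.8. Here the log2 fold change was −0.90 (standard error 0.243, 95% interval −1.43 to −0.37, edgeR adjusted p = 0.0088), a 1.87-fold decrease. The call of Ier2 was lost with DESeq2 (DESeq2 adjusted p = 0.0662) and without siTbk1 replicate 2 (edgeR adjusted p = 0.0529, log2 fold change −0.79). The deposited table gives Ier2 the biotype pseudogene, whereas RefSeq lists it as protein-coding.

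Of the orphan nuclear receptor genes, Nr4a1 was lower at the adjusted p-value and Nr4a2 did not pass the test. Nr4a1 encodes Nur77 and is listed on chromosome 7 from 142905758 to 142920217. It had 790 and 806 estimated counts in the siScramble and 600 and 470 in the siTbk1 libraries. Normalized counts were 709 and 877 in control, a wide spread, and 550 and 537 in siTbk1-treated cells, below both. Nr4a1 had a log2 fold change of −0.54 (standard error 0.103, 95% interval −0.77 to −0.32, edgeR adjusted p = 0.0010), a 1.45-fold decrease. Nr4a1 was called lower with library size alone (log2 fold change −0.59) and without siScramble replicate 2 (−0.69), whose normalized count was the lower of the controls. Nr4a2 encodes Nurr1 and is listed on chromosome 3 from 43111240 to 43119160. After scaling its counts were 216 and 218 in control and 272 and 239 in siTbk1-treated cells, from 241, 200, 297 and 209 estimated counts. The log2 fold change of Nr4a2 was 0.24 (95% interval −0.03 to 0.51, edgeR adjusted p = 0.129), and the intervals of Nr4a1 and Nr4a2 did not overlap, although their difference was not tested. The third member of the family, Nr4a3, came from a wider list and was called lower. It had 173 normalized counts in either control library and 81 in either siTbk1 library, which is −1.10 on the log2 scale (standard error 0.158, edgeR adjusted p = 0.00016).

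The genes with feedback roles, Dusp1 and Crem, changed little or did not pass the test. Dusp1 encodes a phosphatase that inactivates MAP kinases and is listed on chromosome 10 from 16970626 to 16973419. Its estimated counts were 2798 and 2268 in the siScramble and 2330 and 1830 in the siTbk1 libraries. Normalized counts were 2511 and 2468 in control and 2135 and 2090 in siTbk1-treated cells, so each group was tight and the groups were apart. For Dusp1 the log2 fold change was −0.24 (standard error 0.0586, 95% interval −0.36 to −0.11, edgeR adjusted p = 0.0053), a 1.18-fold decrease. After a correction for gene length the change of Dusp1 was −0.13 and no longer passed (edgeR adjusted p = 0.0875).

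Crem encodes activators and repressors of CRE-driven transcription, and its internal starts produce the inducible repressor ICER. The gene is listed on chromosome 17 from 57031766 to 57090889. It had 3275 and 2701 estimated counts in the siScramble and 3387 and 2868 in the siTbk1 libraries, some of them not whole numbers as deposited. Normalized counts were 2939 in either control library and 3104 and 3276 in the siTbk1 libraries, all within a narrow range. Crem had a log2 fold change of 0.12 (standard error 0.0580, 95% interval −0.01 to 0.24, edgeR adjusted p = 0.113), so a decrease of the size seen for Dusp1 lay outside the interval. The table counts the whole gene, and ICER cannot be separated from the longer Crem transcripts.

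**Figure D2:**
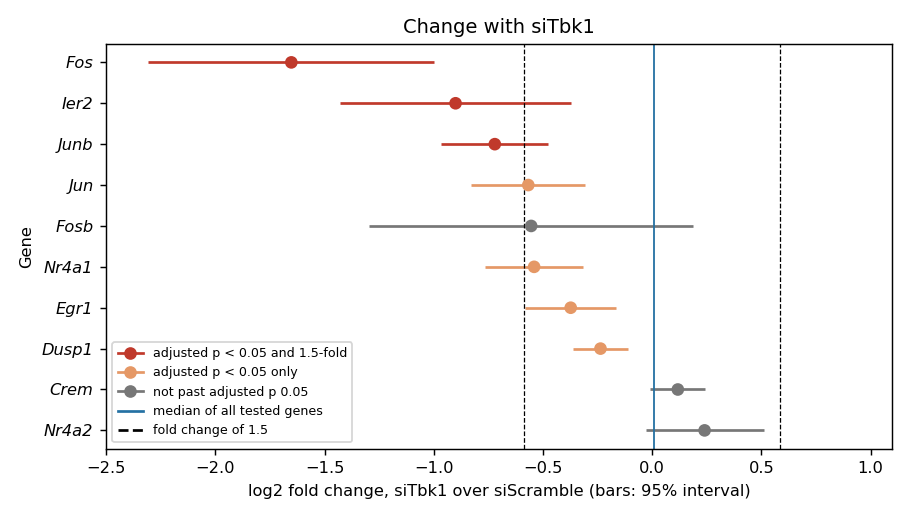
Log2 fold change of siTbk1-treated over siScramble-treated cells for each gene (x axis; points are edgeR estimates, bars their 95% intervals, n = 2 libraries a group). Fos, Ier2 and Junb lie past the 1.5-fold line at −1.65, −0.90 and −0.72, and the intervals of Fosb, Nr4a2 and Crem cross 0.

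Among themselves the genes differed in how closely the ratios between same-numbered libraries agreed. The labels do not say whether equal numbers mark a shared day or culture. For 6 of the 8 lower genes the decrease was larger between the libraries numbered 3 than between those numbered 2, and for Fosb and Ier2 it was larger between those numbered 2. In Fos the log2 ratio was −1.30 between the libraries numbered 2 and −2.02 between those numbered 3. In Dusp1 both ratios were close, at −0.23 and −0.24. All 8 genes were lower in either pair, and Nr4a2 and Crem were higher in either pair. These signs follow from the lack of overlap between the groups and add nothing to it. Non-overlap of the groups is common in these data, since both siTbk1 libraries lay below both controls for 37.9% of tested genes and above them for 38.7%.

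Crem and Dusp1 contributed most of the counts of the 10 genes. All 10 genes together made up 183 and 190 CPM of the siScramble and 162 CPM of either siTbk1 library. Without Crem and Dusp1 the sum was 55.1 and 62.3 CPM in control and 42.2 and 39.5 CPM in siTbk1-treated cells. The table places 9 of the genes within 1.52 to 14.5 kb of genome, below the median span of 20.1 kb over all tested genes, and Crem spans 59.1 kb. These spans run over introns as well as exons. With the correction for gene length the median log2 fold change of the 10 genes was −0.46, the same 3 genes were called lower, and Nr4a2 passed the adjusted p-value upward (log2 fold change 0.33, edgeR adjusted p = 0.0402).

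**Figure D3:**
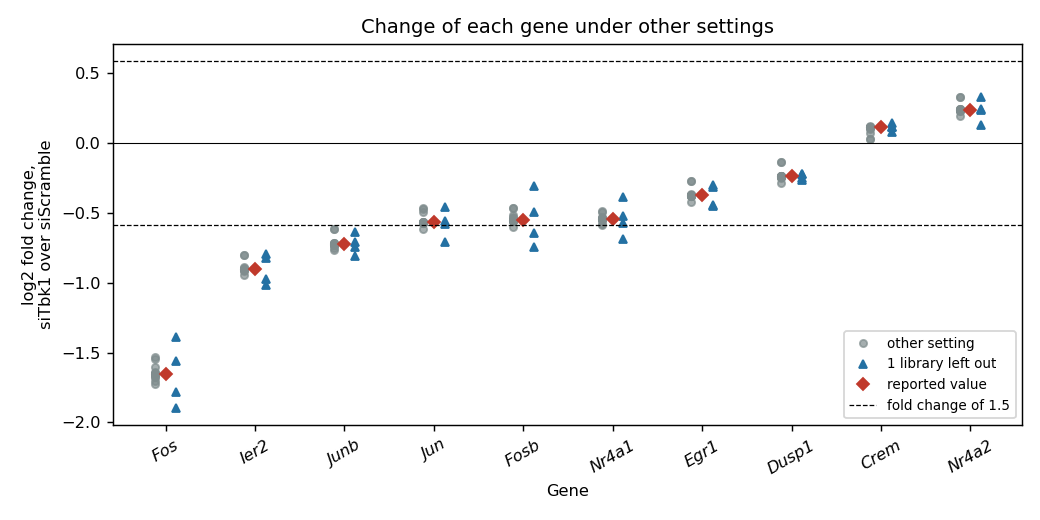
Log2 fold change of each gene (y axis) as reported (diamonds), under each other setting (circles) and with 1 library left out (triangles), with dashed lines at a fold change of 1.5. No gene changed sign, Fos stayed between −1.89 and −1.39, and the values of Jun, Fosb and Nr4a1 fell on both sides of the 1.5-fold line.

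To place these genes in their pathway, 8 further lists were examined, which together hold 117 distinct tested genes. Of these, 13 were called lower and 8 higher, and 45 were lower and 25 higher at the adjusted p-value alone, with a median log2 fold change of −0.11. The shares of all tested genes to read these and the counts of each list against are 6.18% called lower and 4.81% called higher, and 24.8% and 24.4% at the adjusted p-value alone. The lists too were chosen with earlier results of these data known, so these contrasts are descriptive. The remaining AP-1 partners were mostly below 0. Of 7 tested AP-1 partner genes 2 were called lower and 0 higher, with a median log2 fold change of −0.42. Batf3, a bZIP partner of Jun proteins, was at −1.08 (edgeR adjusted p = 0.0043) and the small Maf gene Mafg at −0.59 (edgeR adjusted p = 0.00013). Jund, the remaining Jun family gene, had 1768 ± 326 normalized counts with siScramble and 1293 ± 101 with siTbk1 (SD, n = 2 each), a change of −0.45 (log2) that passed the adjusted p-value only. Mafk was at −0.42 and likewise passed the adjusted p-value only. The call of Mafg was lost without siScramble replicate 2 (−0.51) or siTbk1 replicate 3 (−0.52). Fosl1 and Fosl2 were listed but removed by the filter on low counts.

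Of 3 tested genes of the Egr family and its co-repressors, 1 was called lower and 1 higher. Egr4, another zinc finger factor gene of the family, was lower, with only 21 and 24 estimated counts in the siScramble and 12 and 6 in the siTbk1 libraries and a log2 fold change of −1.27 (standard error 0.435). Its call was lost without siScramble replicate 3 (−1.04) or siTbk1 replicate 3 (−1.01). Nab1, which encodes a co-repressor of Egr proteins, had normalized counts of 2236 ± 112 with siScramble and 5031 ± 150 with siTbk1 (SD, n = 2 each), a 2.25-fold increase. Its log2 fold change was 1.17 (standard error 0.0605, edgeR adjusted p = 2.2e-07). Nab2, the other co-repressor gene, did not pass (log2 fold change −0.13). Egr2 was removed by the filter.

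Among 36 other immediate early genes tested, 4 were called lower and 3 higher, and 14 were lower and 6 higher at the adjusted p-value alone, with a median log2 fold change of −0.12. Npas4, an activity-dependent transcription factor gene, fell from 21 and 17 to 7 and 6 estimated counts (log2 fold change −1.48, standard error 0.454). Nr4a3, Cebpd (−0.92) and Gadd45g (−0.76) were the others called lower. Ptgs2, which encodes cyclooxygenase-2, was called higher from 14 counts in either control library to 27 and 35 (log2 fold change 1.2, standard error 0.382). Hes1 (0.88) and Klf4 (0.63) were also called higher, so the list did not move in 1 direction. Several of these calls were lost with a library left out: that of Npas4 was lost whichever library was left out (log2 fold change between −1.52 and −1.44), and without siTbk1 replicate 3 those of Cebpd (−0.63), Ptgs2 (0.84) and Klf4 (0.50) were lost as well. Without siScramble replicate 2 Ptgs2 (1.06) and Cebpd (−0.89), and without siScramble replicate 3 Cebpd (−0.96), were not called either. Of the genes past the adjusted p-value only, Ier3 (−0.56) and Cebpb (−0.53) changed most.

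The list of CREB and cAMP target genes was divided as well. Of 21 tested genes 3 were called lower and 2 higher, 9 were lower and 5 higher at the adjusted p-value alone, and the median log2 fold change was −0.27. Sik1, a cAMP-induced kinase that restrains CREB coactivators, had 932 and 934 normalized counts in control and 506 and 477 in siTbk1-treated cells. The difference was −0.92 on the log2 scale (standard error 0.0808, edgeR adjusted p = 6.0e-06). Nr4a3 (−1.10) and the neurotrophin gene Bdnf (−0.82) were called lower, and the clock gene Per1 (−0.57) and Nfil3 (−0.51) passed the adjusted p-value only. Scg2, a granule protein gene, was called higher with a log2 fold change of 1.06, as was Ppargc1a, which encodes a coactivator of mitochondrial genes, at 0.77. A RefSeq promoter window was found for 95 tested genes of the 8 lists. A full CRE was present in 9 of them, against 549 of all 27457 rat genes with a window. Among called genes with a window it was found in 0 of 11 that were lower and 2 of 7 that were higher, Scg2 and Ppargc1a. Half-sites and sequence outside the windows were not searched for these lists, so a gene without a match may still hold a CRE. With so few called genes, a difference between the lower and higher genes was not tested. The remaining listed genes with a full CRE were not called in either direction. These counts leave out the 10 genes described. Of those, Ier2 (called lower), Dusp1 (lower at the adjusted p-value only) and Crem (did not pass) held a full CRE.

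Regulators that act on these promoters were examined next. Of 22 genes for CREB family members, coactivators and kinases, 2 were called lower and 1 higher. The CREB coactivator genes Crtc1 (−0.74) and Crtc3 (−0.62) were called lower, with normalized counts of 560 ± 78.9 and 447 ± 65.5 in control against 332 ± 49.9 and 290 ± 29.9 with siTbk1 (SD, n = 2 each). Atf1, a CREB relative, was called higher at 0.59, with deposited counts that were not whole numbers. Without siScramble replicate 3 the log2 fold changes of Crtc3 and Atf1 were −0.46 and 0.53, without siTbk1 replicate 3 they were −0.52 and 0.58, and neither gene was then called. With library size alone or the correction for gene length Atf1 was not called. Prkar1b, a regulatory subunit of protein kinase A, at −0.51 and Atf2 at 0.50 passed the adjusted p-value only. Creb1 itself had 188 to 227 deposited counts, which were not whole numbers. Its log2 fold change was 0.24 (standard error 0.156, edgeR adjusted p = 0.217).

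For the SRF arm, 1 of 5 tested genes was called, Mrtfa, an actin-regulated SRF coactivator gene, at −0.76. Elk4 at 0.31 and Srf at −0.22 passed the adjusted p-value only. In the MAPK arm, 1 of 11 genes was called, Rps6ka2, which encodes a ribosomal S6 kinase, at 0.83. Rps6ka3 (0.55) and Map2k2 (−0.47) passed the adjusted p-value only. Of 15 Dusp and Sprouty feedback genes 1 was called, Dusp8, a phosphatase gene for JNK and p38, at −0.93, with 2456 and 2764 normalized counts in control and 1436 and 1301 in siTbk1-treated cells. Dusp6, an ERK phosphatase gene, was at 0.47 and Spred3 at −0.43, and both passed the adjusted p-value only.

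**Figure D4:**
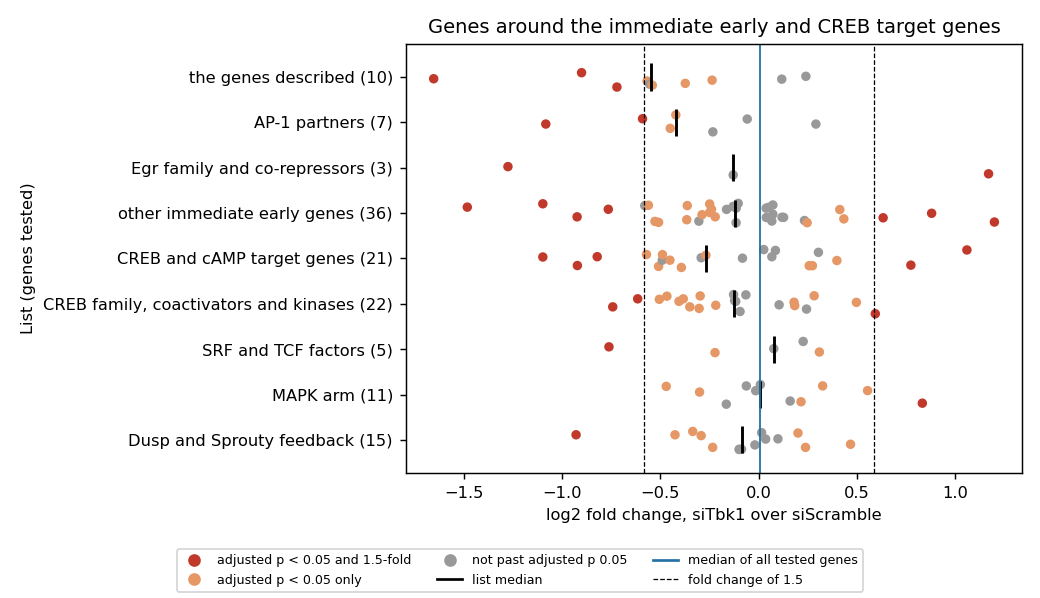
Log2 fold change of each tested gene (x axis) in the 10 genes described and in 8 surrounding lists, with the number tested in brackets, list medians as black bars and the median of all tested genes as a blue line. The 10 genes have the lowest list median at −0.55, and the MAPK and SRF lists have medians of 0.0088 and 0.077. The genes and lists were chosen with earlier results of these data known.

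The genes whose pattern over the 4 libraries was most like each of the 10 were sought among 126 other genes of these lists, by the root mean square difference of mean-centred log2 CPM. Dusp1 was closest to Klf10 (0.0132), Egr1 to the CREB kinase gene Rps6ka4 (0.0280) and Jun to Nfil3 (0.0370). For Fos the closest was Egr4, at a distance of 0.236, and both genes were measured with few counts. Nr4a2 was closest to Jdp2 (0.0365) and Crem to Dusp3 (0.0343). Junb was closest to Mrtfa (0.0723), Nr4a1 to Prkar1b (0.0485), Ier2 to Sik1 (0.124) and Fosb to Mafg (0.0997). With 4 libraries in 2 groups, a small distance largely restates a similar fold change. Examples are Dusp1 (−0.24) with Klf10 (−0.25) and Egr1 (−0.37) with Rps6ka4 (−0.35). The distances are descriptive.

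The share of counts from the mitochondrial chromosome moved with the treatment. It was 6.28% and 6.09% in the siScramble and 7.92% and 8.38% in the siTbk1 libraries, and its part in the lower immediate early mRNAs was not tested. Leaving out any 1 library kept the 10 genes' median log2 fold change between −0.61 and −0.47.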

How the data were processed

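Stranded libraries of polyadenylated RNA from 2 siScramble- and 2 siTbk1-treated samples were analysed. The authors deposited estimated counts per gene, unscaled between samples and partly fractional. The submitters' processing notes name rn6, STAR 2.6.1d and Partek, and the counter, its strand setting and the annotation are not given in the sources used here. Gene positions are those of the table, and promoter positions are GRCr8.

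Counts were rounded, filtered with filterByExpr of edgeR 4.0.16 (minimum count 10, which left 13953 genes and removed 1219) and TMM-scaled. siTbk1 was set against siScramble by edgeR's quasi-likelihood test without covariates, with Benjamini-Hochberg adjustment over all tested genes. A call needed a 1.5-fold change and an adjusted p-value below 0.05, as in the study. Standard errors derive from the F statistic, and no set test was run. A count is called not whole where a value lies over 0.01 from a whole number. The replicate numbers 2 and 3 come from the labels. The alternatives used DESeq2 1.42.0 and limma 3.58.1 in R 4.3.3, with figures from matplotlib 3.10.9. The scripts were tested on simulated data.

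The genes and lists were chosen with earlier results of these data known. The genes named are the 10, Tbk1, the called genes of each list, the 2 largest changes of each list past the adjusted p-value only, listed genes removed by the filter, and the gene most like each of the 10. Creb1, Nab2, Nkx6-1 and Cd68 were named after their values were seen.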

Additional observations from a re-analysis of the deposited data

How the results depend on the processing

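Of the 10 genes, 3 were called lower in 10 of 14 alternatives. The number was 2 with DESeq2, 5 with library size alone, 7 with no fold change limit and 1 (Fos) with glmTreat against a fold change of 1.5. The shares of all tested genes called lower at these settings were 5.29%, 7.62%, 24.8% and 0.72%. Fits with a library left out were run as well, and in a fit of 3 libraries the lone library is assumed to vary like the others. No gene was called higher in these fits, and none of the 10 changed sign. At the adjusted p-value alone, Crem was higher with the crossed block described here (edgeR adjusted p = 0.0465). The median log2 fold change was −0.46 with the gene length correction and −0.47 with that correction and the replicate block, and between −0.61 and −0.47 with a library left out. Tbk1 stayed between −2.13 and −2.05, and between −2.16 and −2.01 with a library left out.

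Same-numbered libraries deviated from their group means with a correlation of 0.0041 across all tested genes and −0.39 across the 7945 genes of at least 4 log2 CPM. With 2 libraries a group, these values cannot show whether equal numbers mark a shared day or culture. With the replicate block, 3 of the 10 genes were called lower, with a median of −0.54. Exchanging the pairs (a crossed replicate block, chosen after seeing the data) also left 3.

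Without the fold change limit, 24.8% of all tested genes were lower and 24.4% higher. The number called in either direction then rose in 7 of the 8 lists, and in the Egr family it was still 2. It was 4 of 7 tested AP-1 partners, 20 of 36 other immediate early genes, 14 of 21 CREB targets and 15 of 22 CREB regulators. For SRF factors it was 3 of 5, for the MAPK arm 6 of 11 and for Dusp and Sprouty genes 8 of 15. With glmTreat it was 0 for AP-1 partners, CREB regulators and SRF factors, 1 for the Egr family and other immediate early genes, and 3 for CREB targets. DESeq2 left 1 in the Egr family and 4 other immediate early genes. A minimum of 10 counts in every sample left 1 in the Egr family, thinning left 1 there and 1 AP-1 partner, and the gene length correction left 1 AP-1 partner with or without the replicate block. With a library left out the number was 1 to 2 for AP-1 partners, the Egr family and the MAPK arm, 3 to 9 for other immediate early genes and 1 to 4 for CREB regulators. For genes under 100 counts, such as Fos, Fosb and Ier2, the few counts and the 2 samples a group limit the precision.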
